A study of Mus musculus with 11 samples.

Results

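Microglia, the resident macrophages of the brain, were followed through 10 marker genes chosen by name, all 10 of which are among the 20475 genes listed in each of the 2 tables of normalized counts. The genes are Cx3cr1, Csf1r, P2ry12, Trem2, Tyrobp, Fcer1g, C1qa, C1qb, C1qc and Aif1. Kif20a, the gene deleted, encodes a mitotic kinesin known for a role in cytokinesis, the final separation of dividing cells. The study reported no obvious cytokinesis defect in neural progenitors that lost it. The comparison asks whether microglial transcripts differed between Kif20a knockout (KO) and wild-type (WT) embryonic mouse brain. RNA came from E12.5 embryos, with the cells given as neural in the sample labels, and the tissue as forebrain in the germline labels and as cortex in the study's methods, so that whole tissue and not sorted microglia was measured.

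The germline comparison held 3 WT and 3 KO libraries. In these KO mice a knockout-first allele, in which Kif20a is broken by an inserted cassette (LacZ plus neomycin resistance), was present in every cell, microglia included. The allele came from a targeted embryonic stem cell clone and was crossed to C57BL/6J mice. The inducible comparison held 2 WT and 3 KO libraries. There Kif20a fl/fl alleles were deleted by Nestin-CreERT2, a tamoxifen-dependent Cre recombinase driven by a Nestin promoter active in neural progenitors, after tamoxifen was given to the pregnant dams. Microglia come from the yolk sac and not from Nestin-expressing progenitors, and recombination in microglia was not measured here. The labels call the controls wild type; in other experiments on this line the study's controls were Kif20a fl/fl littermates without Cre, and the genotype of the sequenced controls is not given beyond their label. Libraries are called by their label number, and WT and KO embryos were littermates, though the sources used here do not tie a library to its litter.

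Microglia enter the embryonic brain from the yolk sac early in development and are kept alive by signals through the receptor Csf1r. They survey the tissue with receptors for neuronal and purine signals, take up dying cells through Trem2 and its adaptors, and are the main source of complement C1q in the brain. Many of these genes are also used by other macrophages, including those of the meninges and the choroid plexus. In bulk RNA a lower level can come from fewer cells of a type or from less RNA per cell, and the 2 cannot be told apart.

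Normalized counts summed to 13048716 to 15551274 per germline library and to 24118520 to 24497307 per inducible library. Kif20a was at 374 to 503 normalized counts in the germline KO against 2295 to 2680 in the WT libraries, and at 2853 to 3125 in the inducible KO against 4760 to 4844. The study places the remaining germline KO signal in the first exons of Kif20a and states that the cassette disrupts the full-length transcript. Germline KO2 stood apart from the other 5 germline libraries in the markers described here, and values are given with and without it. RNA of Y-linked genes was near absent in germline WT2, KO1 and KO2 and in both inducible WT libraries, with a summed level of at most 9.83, and was at 1376 to 4582 in the other 6 libraries. In the inducible comparison, embryo sex and genotype therefore cannot be told apart.

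All 10 markers were lower in germline KO2 than in any of the other 5 germline libraries. Their summed level was 899, 614 and 504 normalized counts in the germline WT libraries and 574, 35.9 and 649 in KO1, KO2 and KO3. KO2 thus held 5.33% of the WT mean, whereas KO1 and KO3 held 85.4% and 96.5% and lay within the range of the WT libraries. In the inducible comparison the sums were 894 and 920 in the WT and 1052, 974 and 1306 in the KO libraries. All 3 inducible KO libraries lay above both WT libraries, and KO3 was the highest at 144% of the WT mean.

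**Figure D1:**
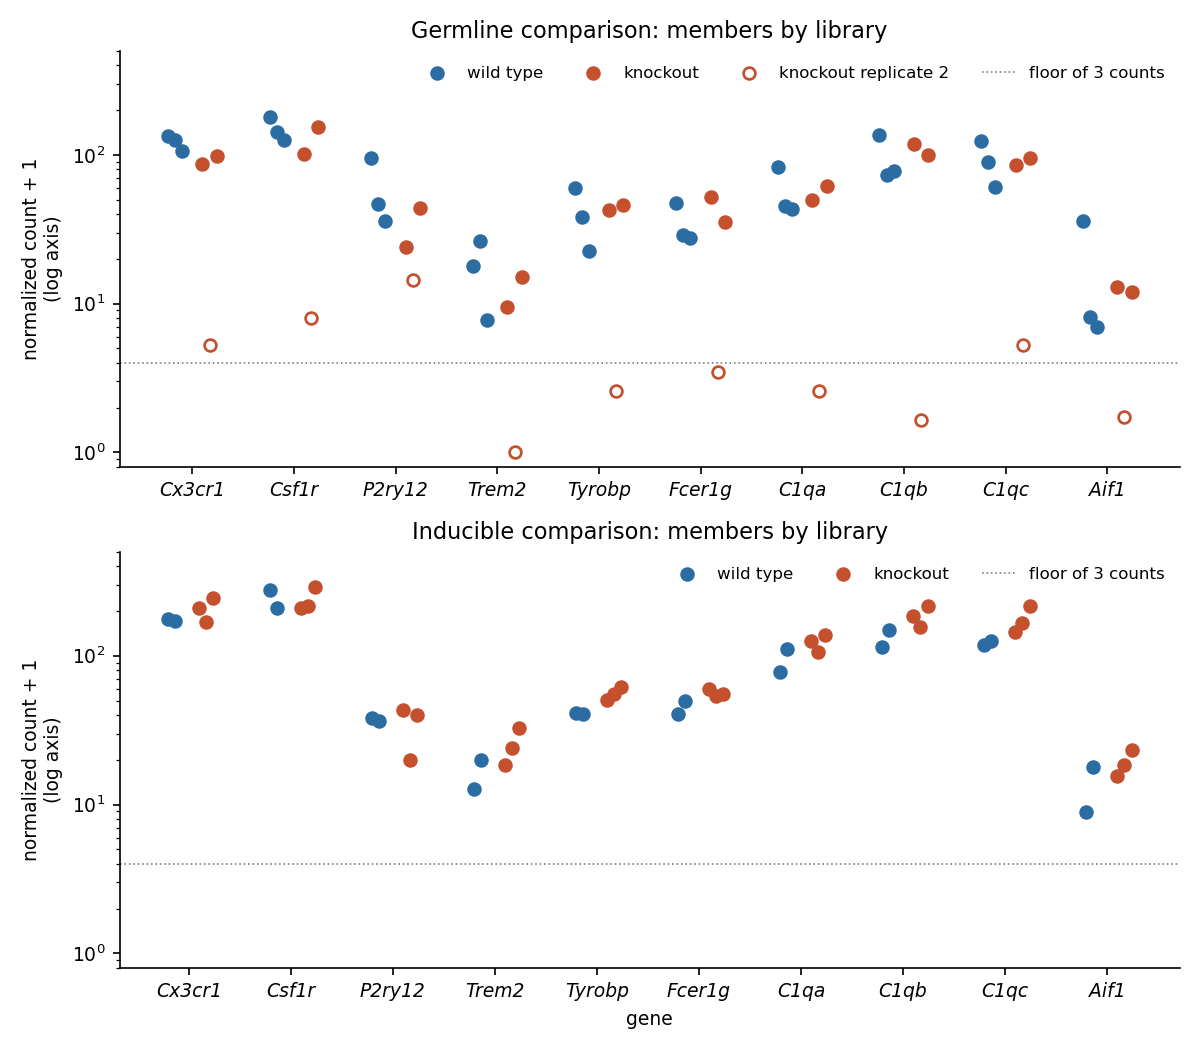
Normalized count plus 1 (log axis) of each of the 10 microglia markers, with 1 point per library, for the germline comparison (top, 3 WT and 3 KO) and the inducible comparison (bottom, 2 WT and 3 KO). Open circles mark germline KO2, which is the lowest library for all 10 genes, and the dotted line marks the floor of 3 counts, under which levels were not ordered.

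The neighbouring genes C1qb and C1qc encode subunits of 1 complex and were both far lower in KO2 than in the other libraries, while P2ry12 kept the highest share of its WT level, so the 250 bases ahead of their transcription starts are shown. They are from RefSeq on GRCm38.p6, minus strand, written 5′ to 3′, at chr4:136886201-136886450 for C1qb, chr4:136892915-136893164 for C1qc and chr3:59262986-59263235 for P2ry12. Capitals mark GAGGAA or its reverse complement TTCCTC, the core letters bound by PU.1 (encoded by Spi1), a transcription factor that microglia need.
C1qb: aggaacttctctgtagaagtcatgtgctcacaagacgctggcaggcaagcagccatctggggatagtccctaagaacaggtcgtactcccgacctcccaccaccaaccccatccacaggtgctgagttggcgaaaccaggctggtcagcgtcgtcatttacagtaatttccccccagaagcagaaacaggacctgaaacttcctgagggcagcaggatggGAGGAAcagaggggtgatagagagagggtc
C1qc: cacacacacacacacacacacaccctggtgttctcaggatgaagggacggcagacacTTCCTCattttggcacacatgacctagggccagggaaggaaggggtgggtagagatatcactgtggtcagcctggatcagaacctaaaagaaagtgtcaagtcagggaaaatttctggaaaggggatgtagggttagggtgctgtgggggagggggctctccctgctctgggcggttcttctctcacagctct
P2ry12: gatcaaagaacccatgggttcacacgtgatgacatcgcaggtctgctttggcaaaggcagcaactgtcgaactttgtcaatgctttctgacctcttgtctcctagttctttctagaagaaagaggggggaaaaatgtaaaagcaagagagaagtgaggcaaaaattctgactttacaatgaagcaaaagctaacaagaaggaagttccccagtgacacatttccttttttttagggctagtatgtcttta
The 6 letters started 30 bases ahead of the transcription start in C1qb and 193 bases ahead in C1qc. RefSeq promoters were matched for 7 markers (Aif1, C1qb, C1qc, Cx3cr1, Fcer1g, P2ry12 and Trem2), and 4 of the 7 (C1qb, C1qc, Aif1 and Trem2) held GAGGAA on either strand, against 23.25% of 32851 promoters. The longer GAGGAAGT, which contains GAGGAA, was in 1 of the 7, C1qc, against 2.44% of promoters. Cx3cr1 and Fcer1g, at 4.26 and 2.48 normalized counts in KO2, held no GAGGAA, and neither did P2ry12. The promoters shown were picked by levels in KO2, and a link between these letters and those levels was not tested. These matches describe letters and not sites of binding.

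Among the surface receptors, Cx3cr1, the receptor for the neuronal chemokine fractalkine, was at 132, 124 and 104 normalized counts in the germline WT and at 86.2, 4.26 and 97.5 in KO1, KO2 and KO3. It was the only marker with all 3 KO libraries below all 3 WT libraries, a pattern that 7.55% of all genes tested showed, and no marker had all KO libraries above all WT libraries, which 5.9% of genes did. On the log2(normalized count + 1) scale the KO minus WT difference was -1.76 (SE 1.06), with a limma unadjusted P of 0.142 and a Benjamini-Hochberg adjusted p of 0.779. Without KO2 the difference was -0.38 (SE 0.22). Cx3cr1 lies on mm9 at chr9:119957811-119977400 on the minus strand.

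Csf1r, the receptor for the survival factors Csf1 and Il34, was at 177, 142 and 124 in the germline WT and at 101, 6.96 and 152 in the KO libraries. KO3 lay between WT1 and WT2, KO1 below all WT libraries, and KO2 far below the rest. The difference was -1.56 (SE 1.03) with KO2 and -0.24 (SE 0.26) without it. Csf1r (mm9 chr18:61265226-61291803, plus strand) shares 871 of its exon bases, 16.7%, with Hmgxb3 on the opposite strand, so that reads there may belong to either gene.

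P2ry12, a receptor for ADP that guides microglial processes, was at 94.6, 45.4 and 35.1 in the germline WT and at 23.1, 13.3 and 43.2 in KO1, KO2 and KO3. KO1 and KO2 lay below all WT libraries and KO3 among them, and WT1 was 2.69-fold above WT3. The difference was -1.13 (SE 0.55; limma, unadjusted P = 0.0773, Benjamini-Hochberg adjusted p = 0.779), and -0.73 (SE 0.47) without KO2. Leaving out KO3 instead, P2ry12 passed both thresholds, a fold of 1.5 and an unadjusted P of 0.05, at -1.55 (limma, Benjamini-Hochberg adjusted p = 0.431). In that setting 403 of 13916 genes were called lower.

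Trem2, the receptor through which microglia sense lipids and debris, was at 16.9, 25.5 and 6.81 in the germline WT and at 8.53, 0 and 14.1 in the KO libraries. Its signalling adaptor Tyrobp (DAP12) was at 58.5, 37.2 and 21.6 in the WT and at 41.7, 1.58 and 45.2 in the KO libraries. For Fcer1g, the adaptor shared by Fc receptors, the WT values were 46.7, 27.9 and 26.5 and the KO values 51.0, 2.48 and 34.2. In this group KO1 and KO3 lay among the WT libraries, apart from Fcer1g in KO1, which was the highest of the 6, and KO2 was under the floor of 3 normalized counts for all 3 genes. The differences were -1.56 (SE 1.09), -1.11 (SE 1.12) and -0.86 (SE 0.99) for Trem2, Tyrobp and Fcer1g with KO2, and -0.37, 0.26 and 0.35 without it.

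The 3 chains of C1q, which starts the classical complement pathway, are encoded side by side on mm9 chromosome 4 (C1qa at 136451832 to 136454718, C1qc at 136445719 to 136448980 and C1qb at 136436044 to 136442102, all on the minus strand). C1qa was at 81.7, 44.0 and 42.3 in the germline WT and at 49.0, 1.57 and 60.3 in KO1, KO2 and KO3. C1qb was at 134, 71.9 and 76.8 in the WT and at 117, 0.66 and 98.5 in the KO libraries. For C1qc the WT values were 123, 88.9 and 60.2 and the KO values 84.9, 4.26 and 93.4. KO1 and KO3 lay inside the WT range for each chain, and KO2 lay at no more than 5.36%, 3.18% and 4.70% of the WT mean for C1qa, C1qb and C1qc, with values under 3 normalized counts set to 3. The 3 differences were -1.45 (SE 1.17), -1.77 (SE 1.55) and -1.33 (SE 1.08), and without KO2 they were 0.03, 0.24 and 0.03.

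Aif1, the actin-bundling protein stained as IBA1 to show microglia, was at 34.9, 7.16 and 5.98 in the germline WT and at 12, 0.74 and 11.1 in the KO libraries. WT1 was 5.84-fold above WT3, the widest spread between WT libraries among the 10 markers (median 1.99-fold), and KO1 and KO3 lay between them. The difference was -0.97 (SE 1.02) with KO2 and -0.02 (SE 0.72) without it. WT1 was the highest WT library for 9 of the 10 markers, and WT3 the lowest for 9.

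No marker passed the fold and P thresholds in either direction in the germline comparison, where 0.667% of the 13938 genes tested were called lower and 2.07% higher. At an unadjusted P of 0.05 in limma alone the count was also 0 of 10, against 5.39% of genes, and no marker had a Benjamini-Hochberg adjusted p under 0.05, against 0.00717% of genes, with adjusted p between 0.779 and 0.851. The median log2 difference of the markers was -1.39, with all 10 negative, beside a median of -0.04 over all genes tested. Without KO2 the median was 0.0024, with 5 negative, and again no marker was called, against 4.58% of genes called lower and 4.19% higher. The 95% intervals without KO2 reached from -0.89 to 0.13 for Cx3cr1, the narrowest, and from -1.81 to 0.34 for P2ry12, -1.73 to 0.99 for Trem2 and -1.67 to 1.63 for Aif1, so sizeable differences lie within the spread of these libraries.

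**Figure D2:**
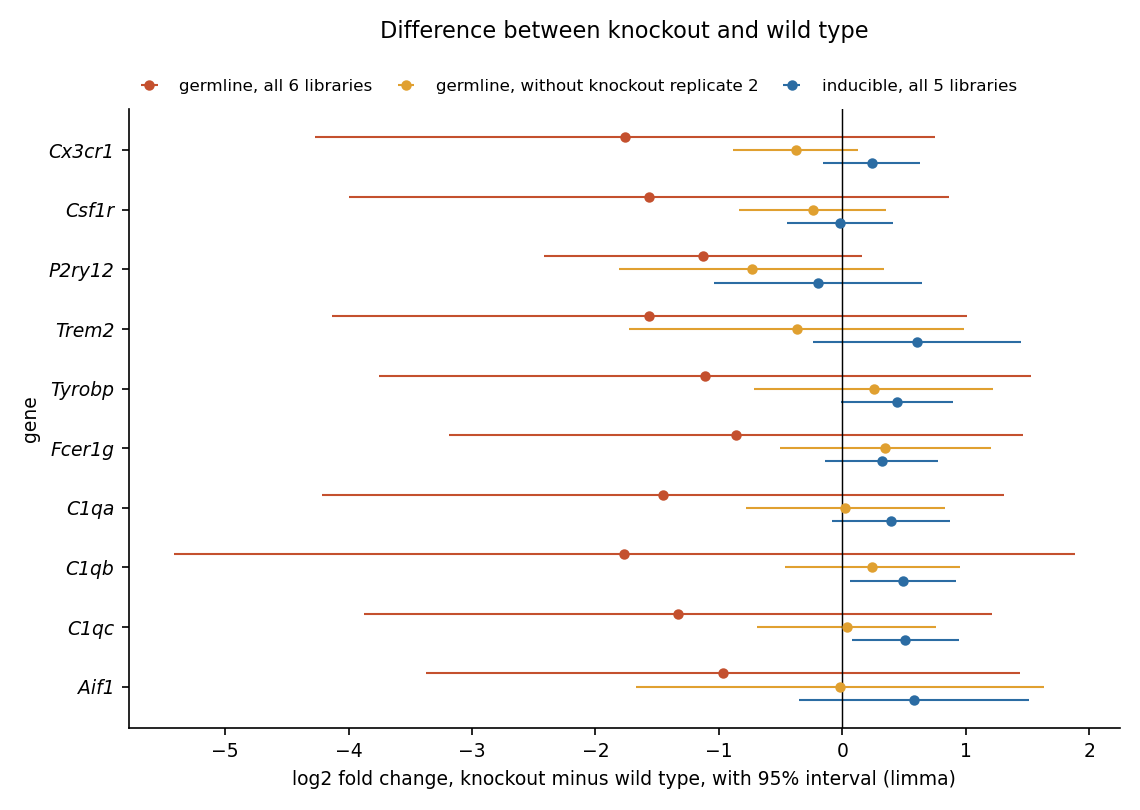
Log2 difference between KO and WT (x axis, on the log2(normalized count + 1) scale) for each marker, with limma 95% intervals, for all 6 germline libraries, for the germline libraries without KO2 and for the 5 inducible libraries. With KO2 all 10 germline values are negative, from -1.77 to -0.86, with intervals that span 0, and without it they lie between -0.73 and 0.35.

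In KO2, 6 of the 10 markers were at or under the floor of 3 normalized counts. With those set to 3, KO2 carried between 3.18% and 22.9% of the WT mean per marker (median 6.51%), and as listed the median was 4.33%. KO1 carried 39.6% to 151% (median 81.2%) and KO3 69.0% to 116% (median 102%). To set KO2 against the rest of the transcriptome, genes were counted whose KO2 value, or 3 where it was lower, was at least 5-fold under the lowest of the other 5 germline libraries. This held for 166 of the 12815 genes that could show it, 1.3%, and for 7 of the 8 markers that could (Cx3cr1, Csf1r, Tyrobp, Fcer1g, C1qa, C1qb and C1qc). The eighth was P2ry12, and Aif1 and Trem2 were too low in another library to be counted. The same count made for each of the other 5 germline libraries gave 0 to 3 genes and no marker. The rule was set after the values of KO2 had been seen, and it describes 1 library with no replicate.

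With values under 3 normalized counts set to 3, C1qb showed the widest gap, with KO2 at most 4.17% of the lowest other library, followed by Cx3cr1 at 4.94%. Markers set to 3 have only an upper bound, so the floor sets part of this order. P2ry12 departed from the other markers in KO2. It made up 37.2% of the summed level of the 10 markers there, against 4.02% to 10.5% in the other 5 germline libraries, and the C1q chains made up 18.1% against 33.3% to 43.7%. The KO2 shares are imprecise, since they rest on a sum of 35.9 normalized counts with 6 of the 10 markers at or under the floor. P2ry12 (mm9 chr3:59020193-59066753, minus strand) lies within the span of Med12l without sharing an exon base, and Med12l was at 1315 in KO2 against 627 to 776 in the other germline libraries. P2ry13, a related receptor gene at the same locus, was at 10.7 in KO2 and at 20.2 to 41.0 in the others. Whether reads from Med12l entered the P2ry12 count was not tested.

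**Figure D3:**
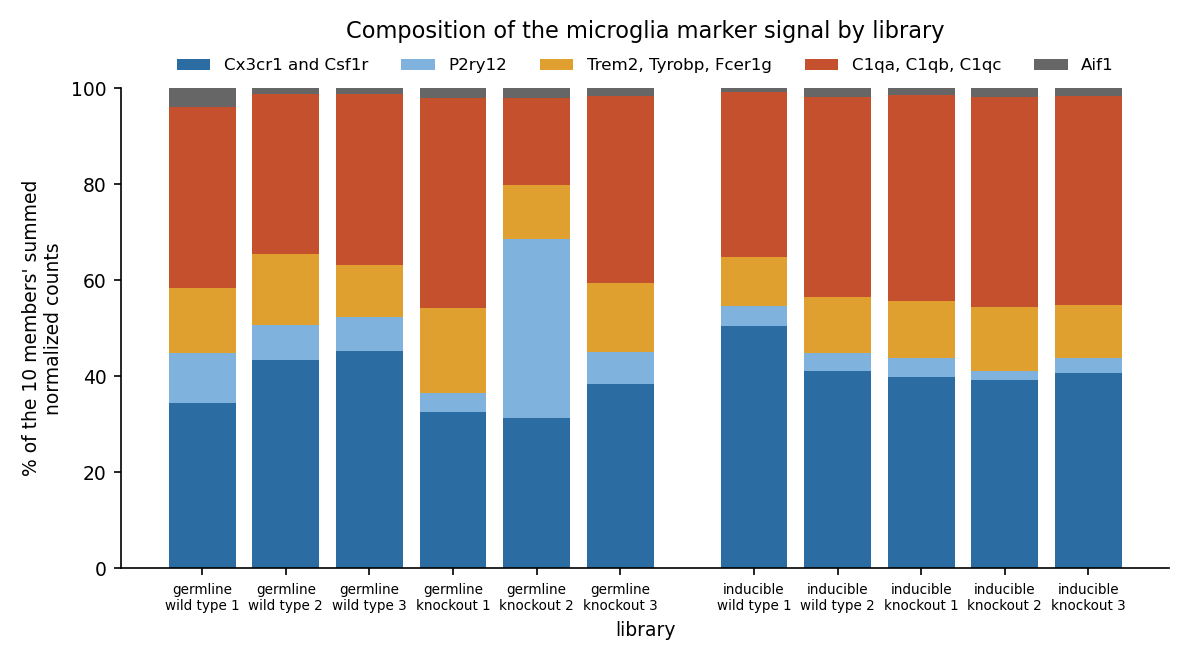
Share of the summed normalized counts of the 10 markers (y axis, %) taken by each group of genes, with 1 bar per library. P2ry12 takes 37.2% in germline KO2 and at most 10.5% in any other germline library. The germline KO2 bar rests on a sum of only 35.9 normalized counts.

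Other genes of macrophages were also low in KO2. Of 27 other microglia and macrophage genes that could show a 5-fold gap, 13 did, among them Fcgr3, an Fc receptor, at 0.68 in KO2 against 27.9 to 62.3 elsewhere, Lyz2, which encodes lysozyme, and Ptprc, the pan-leukocyte antigen CD45, at 1.60 against 16.8 to 38.9. The purine receptor P2ry6 and the microglial surface protein Tmem119 were at 0 in KO2. Unlike the summed markers, Tmem119 lay above the WT range in KO1 and KO3, at 94.2 and 47.2 against 12.7 to 36.9. Not every gene of this list was low there: Coro1a, which encodes an actin-binding protein of leukocytes, was at 96.2% of the WT mean. Genes of border macrophages, which sit in the meninges and choroid plexus, showed the gap for 5 of 6 (Mrc1, Pf4, Lyve1, F13a1 and Dab2). Mrc1, the mannose receptor of these macrophages, was at 0 in KO2 and at 202 to 407 in the other germline libraries. Dab2 was at 74.8 in KO2 but at 1623 and 694 in KO1 and KO3, above the WT range of 479 to 612. Which cells gave the Tmem119 and Dab2 RNA was not tested. Spi1, which encodes PU.1, was at 0 in KO2 against 9.73 to 19.1, and none of the 5 myeloid transcription factors that could show the gap did.

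Genes of cell types outside the macrophage lineage also stood apart in KO2. The 9 cranial mesenchyme genes summed to 7.67% of the WT mean in KO2, with 8 of 9 past the 5-fold gap, while KO1 and KO3 stood at 305% and 159%. The 14 endothelial genes stood at 36.9% in KO2 (2 of 13 past the gap), and the 9 erythroid genes, mainly haemoglobins, at 26.6% (0 of 7). The 12 cortical neural genes stood at 152% (0 of 12), and 10 hypoxia-linked genes at 316%, 425% and 121% in KO1, KO2 and KO3. The monocyte, granulocyte and mast cell genes were low in every germline library, with sums of 35.0 to 121. Ligands and complement partners of the markers summed to 83.3% in KO2, with 0 of 8 past the gap, but members differed. Of the 13 found, 8 were lowest in KO2. Cx3cl1, the ligand of Cx3cr1, was at 140 in KO2 against 88.3 to 149 elsewhere, and Tgfb2 at 515 against 269 to 396. Csf1, a ligand of Csf1r, was at 49.6 against 103 to 166, and Apoe at 127 against 420 to 645. The part of these shifts in the low marker levels of KO2 was not tested.

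**Figure D4:**
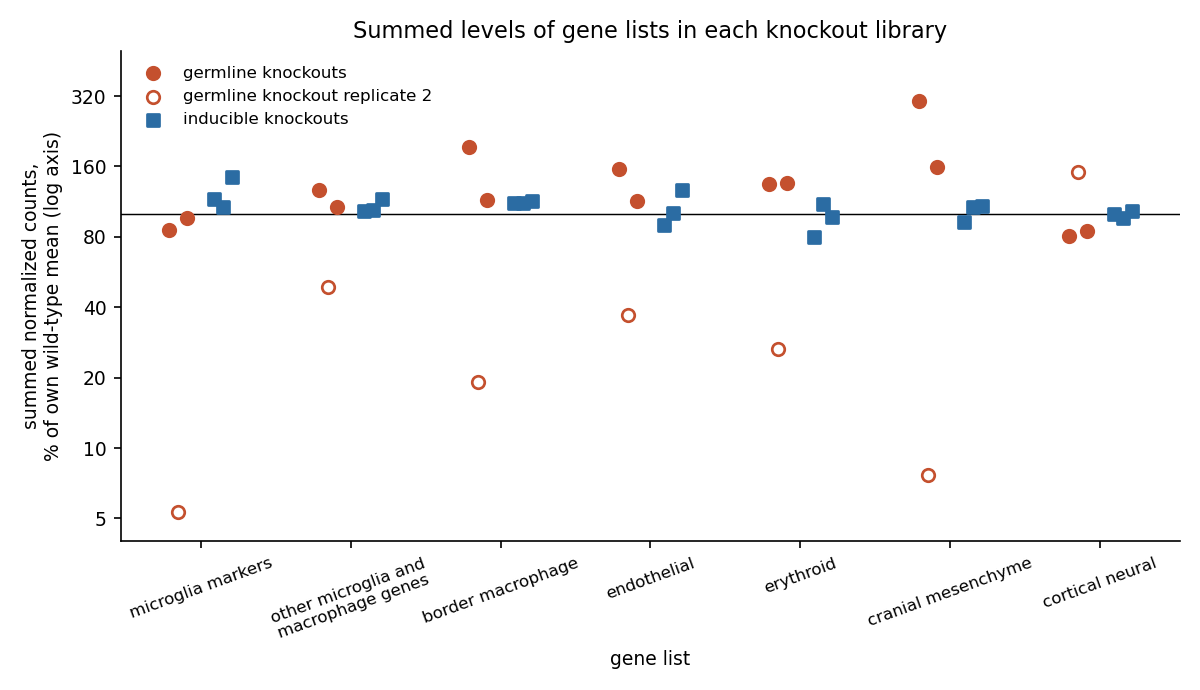
Summed normalized counts of 7 gene lists in each KO library, as a percentage of the mean of the WT libraries of the same comparison (log axis), with the line at 100%. Germline KO2 (open circles) is at 5.33% for the microglia markers, 19.2% for border macrophage genes, 7.67% for cranial mesenchyme genes and 152% for cortical neural genes, while the inducible KO libraries lie between 79.9% and 144% for all 7 lists.

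By the test over all genes, none of the lists of macrophage genes held a called gene in the germline comparison. All medians in this paragraph include KO2. Of 38 other microglia and macrophage genes tested, 34 had negative differences with a median of -0.48, and the 6 border macrophage genes had a median of -1.42. Summed levels in KO1, KO2 and KO3 were 193%, 19.2% and 116% of the WT mean for the border macrophage list. For the other microglia and macrophage list they were 126%, 48.6% and 107%. Cranial mesenchyme sums, given above, were likewise above the WT mean in KO1 and KO3 and below it in KO2. Sums of the myeloid transcription factors, mostly Sall1, went the other way, at 59.6%, 145% and 76.9%. The 7 myeloid transcription factors had a median of -0.45 and the 8 ligands and complement partners a median of -0.0021. The medians were -0.85 for 9 cranial mesenchyme genes, -0.28 for 13 endothelial genes, -0.08 for 9 erythroid genes, 0.06 for 12 cortical neural genes, 0.08 for 2 monocyte and granulocyte genes and -3.73 for 4 Y-linked genes, with no gene of these lists called. Among 10 hypoxia-linked genes 8 were called higher, with a median of 1.83 over the list, and none had a Benjamini-Hochberg adjusted p under 0.05 in limma.

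The inducible comparison gave values on the other side of 0 for most markers. The median difference was 0.42, with 8 of 10 positive, beside -0.0019 over all genes tested. None passed the fold and P thresholds, which called 0.49% of 14081 genes lower and 0.802% higher. At an unadjusted P of 0.05 in limma, C1qb and C1qc passed (2 of 10, against 6.01% of all genes), and no Benjamini-Hochberg adjusted p was under 0.825, where 0.0355% of genes had one under 0.05. The count past both thresholds was 1 without KO1 (C1qc), where 114 of 14077 genes were called higher. It was 1 without KO2 (C1qb), where 80 of 14053 genes were. Without WT2 only the single WT1 is left as control. The differences were then 1.09 for Aif1, 0.66 for C1qa and 0.69 for C1qb, and 2 of the 10 markers were negative.

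C1qb was at 113 and 148 in the inducible WT and at 185, 155 and 214 in the KO libraries, a difference of 0.50 (SE 0.18; limma, Benjamini-Hochberg adjusted p = 0.825). C1qc was at 116 and 125 in the WT and at 143, 166 and 215 in the KO libraries, a difference of 0.51 (SE 0.19; limma, Benjamini-Hochberg adjusted p = 0.825). For C1qa the WT values were 76.8 and 110 and the KO values 124, 105 and 138, a difference of 0.40 (SE 0.20). The groups did not overlap for C1qb and C1qc, and C1qa in KO2 lay between the WT libraries.

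Tyrobp was at 40.4 and 39.4 in the inducible WT and at 49.5, 54.5 and 60.4 in the KO libraries (difference 0.44, SE 0.19). Fcer1g was at 39.4 and 48.9 in the WT and at 58.4, 52.6 and 54.1 in the KO libraries (0.32, SE 0.20). Trem2 was at 11.8 and 19.1 in the WT and at 17.4, 23.0 and 31.6 in the KO libraries (0.60, SE 0.36). With the 2 C1q chains, Tyrobp and Fcer1g made 4 of 10 markers with all KO libraries above both WT libraries, a pattern that 10.4% of all genes tested showed, and Trem2 overlapped through KO1.

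The surface receptors Cx3cr1, Csf1r and P2ry12 had differences of -0.20 to 0.24. Cx3cr1 was at 175 and 170 in the inducible WT and at 209, 166 and 243 in the KO libraries, with a difference of 0.24 (SE 0.17). Csf1r was at 275 and 208 in the WT and at 210, 216 and 289 in the KO libraries, with a difference of -0.02 (SE 0.18). The groups overlapped for both. P2ry12 was at 37.4 and 35.2 in the WT and at 41.9, 19.0 and 39.1 in the KO libraries, where KO2 alone was low (-0.20, SE 0.36). Aif1 was at 7.85 and 16.9 in the WT and at 14.5, 17.5 and 22.2 in the KO libraries, with overlap through KO1 (0.58, SE 0.40).

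KO3 was above the WT mean for all 10 markers (108% to 205%, median 149%), KO1 for 9 (median 120%) and KO2 for 7 (median 119%). In KO3 the endothelial genes also stood at 127% of their WT mean and the other microglia and macrophage genes at 116%. Of 41 other microglia and macrophage genes tested, 4 rose: P2ry6 (0.98), Spp1 (0.95), C3ar1 (0.68) and Dock2 (0.60), with limma P of 0.00849, 0.00291, 0.0043 and 0.0325 and adjusted p of 0.669 to 0.825. Spp1 encodes osteopontin, and C3ar1 the receptor for the complement fragment C3a. The list's median was 0.19. No gene was called among the 6 border macrophage (median 0.21), 7 myeloid transcription factor (0.10), 9 ligand and complement partner (-0.05), 2 monocyte and granulocyte (-0.54), 9 erythroid (-0.08), 13 endothelial (0.07), 9 cranial mesenchyme (0.07), 12 cortical neural (-0.06) and 9 hypoxia-linked genes (-0.13). The 4 Y-linked genes rose, with a median of 8.52.

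Per kilobase of transcript, the order of the marker levels in the germline WT libraries was led by C1qb (mean 86.7 normalized counts per kilobase, range 66.1 to 123), C1qc (75.3), Tyrobp (69.4), C1qa (53.9) and Fcer1g (50.0). Cx3cr1 (32.2), Csf1r (31.5), P2ry12 (25.0), Aif1 (18.3) and Trem2 (15.5) followed. Ranges of neighbours in this order overlapped except between Fcer1g, at 39.3 or more, and Cx3cr1, at 35.3 or less. In the inducible WT libraries C1qb (120) and C1qc (100.1) again led, and P2ry12 (15.5), Trem2 (14.6) and Aif1 (14.2) were lowest.

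The genes most like the markers were sought by Pearson's r with the mean of the 10 markers over the 11 libraries, each table centred on its own mean. The 5 with the highest r of 13731 other genes were Zfp963 (0.993), Mpeg1 (0.992), Fcrls (0.990), Rgs5 (0.982) and Fcgr3 (0.982). Mpeg1, which encodes the macrophage protein perforin-2, was at 9.67 in germline KO2 against 96.4 to 157 in the other germline libraries. Rgs5, a pericyte gene, was at 4.26 against 108 to 329. Zfp963 was at 134 in KO2 against 195 to 212. Without KO2 the r values were 0.902, 0.874, 0.841, 0.795 and 0.710. The points share library and normalization, and KO2 sets most of their spread.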

How the data were processed

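Poly(A) RNA from E12.5 forebrain or cortex was sequenced in 11 libraries, 3 WT and 3 KO in the germline and 2 WT and 3 KO in the inducible comparison, grouped by their labels. Reads were aligned by the authors to mm9, using TopHat (1.2.0 in the submitters' processing notes), counted on RefSeq exons without counting a read more than once in a gene, and scaled with edgeR's trimmed mean of M-values. The deposited signal is these normalized counts, equalized between the libraries of each table by the authors; the values are not whole numbers and not per length, so no count model was fitted, and no test crossed the tables. Whether libraries kept strand is not given in the sources used here. The number of reads behind a value is not known, and 3 normalized counts were taken as a floor.

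Genes with a mean of at least 10 were tested on log2(normalized count + 1) with limma 3.58.1 in R 4.3.3 (mean-variance trend, two-sided, Benjamini-Hochberg adjustment over all genes tested). The study's thresholds were used for calls (fold 1.5 or more, unadjusted P 0.05 or less). The fit was checked on simulated data. P-values measure the spread between libraries, which were made from littermates. Lengths and positions are from GENCODE M1 on NCBIM37, the same assembly as mm9, with 1 transcript per gene. The markers and the gene lists were chosen with earlier results of these data known. Named genes are the 10 markers, Kif20a, other microglia and macrophage genes past both thresholds, and the 5 genes most like the markers. Hypoxia-linked and Y-linked genes past both thresholds are given only as counts. Other genes were named after their values were seen. Alternatives tried were other pseudocounts, no filter, quantile normalization, no trend, array weights, a replicate block, Y-linked level as covariate, values per kilobase (added after seeing the data) and leaving out each library.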

Additional observations from a re-analysis of the deposited data

Results flagged for a closer look

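Aif1 and Trem2 were singled out because every germline KO library lay below the germline WT mean while every inducible KO library lay above the inducible WT mean. For Aif1 that germline mean rests largely on WT1 (34.9). Its values in KO1 and KO3 (12 and 11.1) lay above WT2 and WT3 (7.16 and 5.98). For Trem2, KO1 and KO3 (8.53 and 14.1) lay above WT3 (6.81). The log2 difference between KO and WT for Aif1 was -0.97 among germline and 0.58 among inducible libraries, a gap of -1.55, and -1.56 and 0.60 for Trem2, a gap of -2.17. The difference between the comparisons was not tested, since the tables were normalized separately. Both genes were low, with at most 34.9 normalized counts in any library, and without germline KO2 the germline values were -0.02 and -0.37.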

How the results depend on the processing

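In the germline comparison the markers' median log2 difference (-1.39) lay between -2.16 and 0.0024 when 1 library was left out, the highest value being that without KO2, at -0.10 with array weights, which give the libraries unequal weight, and at -0.78 with the Y-linked level as covariate. The number of markers called lower was 0 with all libraries and ranged from 0 to 1 when 1 library was left out, the 1 being P2ry12 without KO3. Without KO2 the values of C1qa, C1qb, C1qc, Tyrobp and Fcer1g turned positive, and without 1 library they ranged from -2.26 to 0.025 for C1qa, -2.83 to 0.24 for C1qb, -2.05 to 0.034 for C1qc, -1.83 to 0.26 for Tyrobp and -1.60 to 0.35 for Fcer1g. Array weights turned Aif1 (0.18), C1qb (0.038), Tyrobp (0.21) and Fcer1g (0.32) positive. The KO to WT ratio of summed levels (0.624) ranged from 0.454 to 0.909. In the inducible comparison the number of markers called higher ranged from 0 to 1 when 1 KO library was left out. The median (0.42) ranged from 0.22 to 0.52 when any 1 library was left out. Csf1r (-0.02) ranged from -0.22 to 0.18 and was positive without WT1, KO1 or KO2, and P2ry12 (-0.20) ranged from -0.40 to 0.15, positive without KO2. The cause of these changes was not tested, beyond there being fewer libraries. Over all genes the calls without 1 library ranged from 42 to 642 lower and from 115 to 617 higher in the germline, and from 44 to 89 lower and from 80 to 250 higher in the inducible comparison. Array weights called 484 lower and 560 higher in the germline. With no filter 180 were lower in the germline, and 145 lower and 212 higher in the inducible comparison, and the Y-linked covariate left 110 higher in the germline.

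The deviations of same-numbered libraries from their group means correlated at r of -0.12, 0.31 and 0.25 in the germline and at -0.35 and -0.05 in the inducible comparison, so not every pair was above 0.1 and the numbers were not taken to pair the libraries. With a replicate block 0 markers were called in either comparison, the medians were -1.39 and 0.34, and 0 inducible markers in place of 2 had an unadjusted P of at most 0.05. The alternative on lengths given in the tables was not run, because the tables hold none. With 2 or 3 libraries a group, only differences well above the spread between libraries could be shown, and markers with few counts, such as Aif1 and Trem2, are the least precise.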
